A study of Homo sapiens with 6 samples.

Results

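Long noncoding RNA genes and snoRNA host genes were followed in U2OS, an established human osteosarcoma cell line, after transfection with a synthetic mimic of miR-542-3p. The members are all genes on the array whose symbol begins with LINC or SNHG, ends in -AS1, -AS2, -DT or -IT1, or joins a MIR prefix to the ending HG. MALAT1, NEAT1, GAS5, H19, MEG3, PVT1 and TP53TG1 were added by name. The rule uses names alone and found 511 genes with 615 probes, of 20046 genes and 47323 probes in all. NEAT1 had no probe among them and was not analysed here. A RefSeq gene table lists 508 of the 511, of which 504 have the type lncRNA and 4 the type antisense_RNA.

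The samples were 3 given the miR-542-3p mimic and 3 given a negative control mimic, all taken 48 h after transfection. No other agent or genotype is given, and all 6 samples are of a single cell line. The labels do not name separate cultures within a group, so each p-value reflects sample-to-sample spread that may be technical. Labelled RNA was hybridised to Illumina bead arrays, with 1 array per sample.

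A long noncoding RNA is transcribed and often spliced like a messenger RNA but encodes no known protein. Antisense genes (-AS) are read from the strand opposite a named gene, and divergent transcripts (-DT) leave a shared promoter in the other direction. SNHG genes carry small nucleolar RNAs (snoRNAs) in their introns, which guide chemical modification of ribosomal RNA. Their spliced exons are exported, and many are destroyed by nonsense-mediated decay. A microRNA lowers messenger RNAs that match its seed, and long noncoding RNAs can also be bound by microRNAs. LINC symbols are mostly names for genes between coding genes whose function is not established.

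Most of these genes gave no signal above background. A gene counted as measured when a probe had a detection p-value under 0.05 on at least 3 of the 6 arrays, and 118 of the 511 members passed, or 23.1%. Over all genes 10734 passed, or 53.5%. For another 100 members the best probe was detected on 1 or 2 arrays, and 293 members were detected on none. Hosts of snoRNAs were measured most often, with 13 of the 17 SNHG genes and GAS5 counted together. For LINC genes the count was 43 of 253, for antisense genes 48 of 178, for divergent transcripts 11 of 33 and for microRNA hosts 2 of 17. None of the 8 genes with the ending -IT1, which marks a transcript inside an intron, was measured. The members' probes detected numbered 139, 130 and 128 on the mimic arrays, against 143, 136 and 131 on the control arrays.

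**Figure D1:**
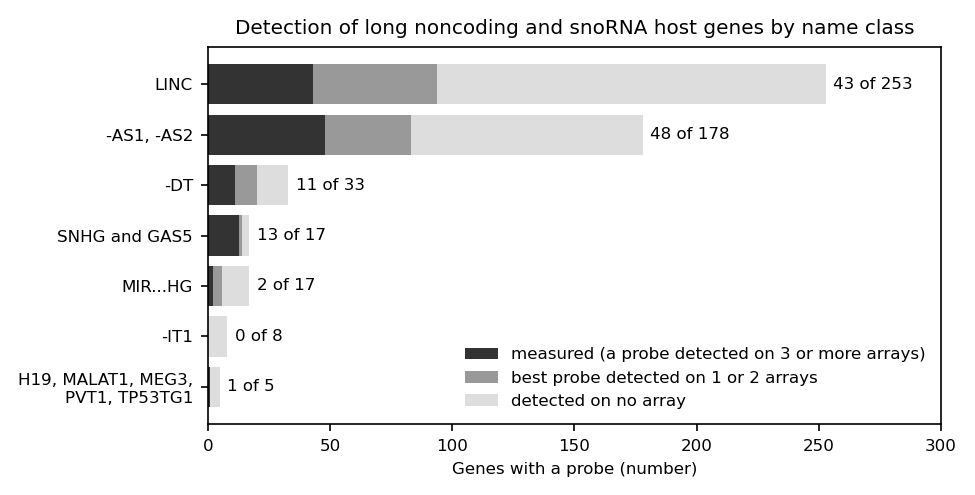
Number of member genes with a probe (horizontal axis) in each name class, split into measured genes, genes whose best probe was detected on 1 or 2 arrays, and genes detected on no array. The label beside each bar gives the measured genes of all genes with a probe, and 13 of 17 snoRNA hosts were measured against 43 of 253 LINC genes.

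Median array signal ranged from 132.2 to 151.4, and 17848 to 18652 of all probes were detected per array. Over probes, correlations lay between 0.982 and 0.990 within a group, and between 0.953 and 0.966 for a mimic array set against a control array. Of 9 osteoblast and mesenchymal markers, 8 were detected on all 6 arrays, and COL1A2 was detected on at most 1. Leukocyte and endothelial markers were detected on all arrays in 0 of 3 and 0 of 3 cases. The endothelial marker VWF was detected on 3 arrays and the leukocyte marker CD14 on at most 2. The epithelial markers EPCAM, KRT8 and KRT18 were detected on all arrays, and CDH1 on none. Signals below are on the log2 scale after background correction and quantile normalization. Each change is the mimic mean minus the control mean with its limma standard error. In RNA from whole cultures, fewer cells with a transcript and less transcript per cell cannot be told apart.

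Of the 118 measured members, 14 rose with the mimic, 12 fell and 92 did not pass an adjusted p under 0.05 in limma. These 26 were 22.0% of the members. Over all 10734 measured genes 26.4% passed, with 12.7% higher and 13.7% lower, and over all 14775 rows tested 23.6% passed, so the members' share lay close to the background. The members' median change was 0.05 and that of all genes 0.02. A change of at least 2-fold with an adjusted p under 0.05 was seen for 4 members upward and 2 downward. Without background correction LINC02875 alone of these 6 kept a change of that size. Mimic and control arrays did not overlap for 37 of the 118 members, while 45.0% of all genes had groups that did not overlap. The mimic arrays were the higher ones for 22 of the 118 members, against 23.0% of all genes. The median standard error was 0.185 for members and 0.152 for all genes. The counts depend on single arrays. The number of members that rose was 4 without mimic array 1, 6 without mimic array 3, 6 without control array 1, 9 without control array 2 and 7 without control array 3. The number that fell was 7 without any 1 of these 5 arrays. Without mimic array 2 the counts were 14 and 11.

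**Figure D2:**
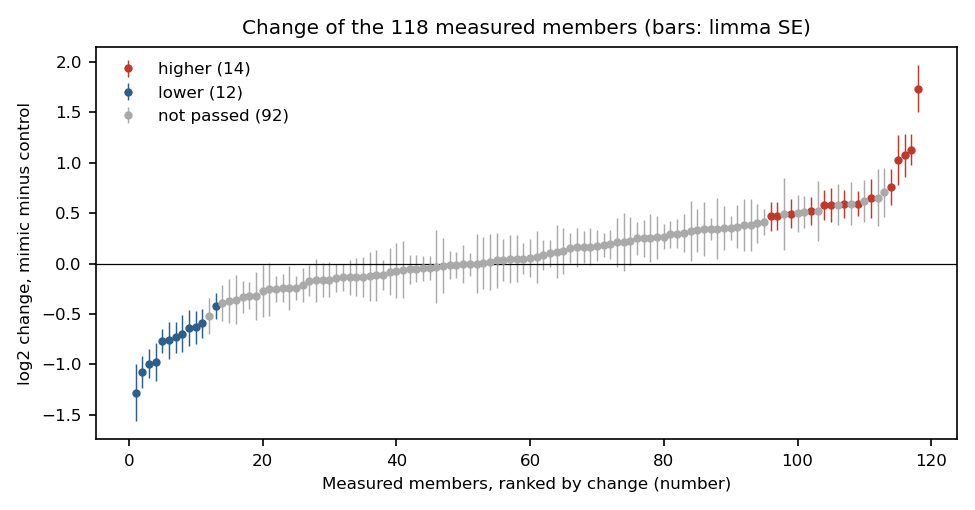
Log2 change, mimic minus control, of each of the 118 measured members (vertical axis) in order of change (horizontal axis), with bars for the limma standard error and colours for the 14 that rose, the 12 that fell and the 92 that did not pass. The changes run from -1.28 to 1.74, with LINC00470 first and LINC02875 last.

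The hosts of snoRNAs split by direction. SNHG4, SNHG3 and SNHG1 fell, SNHG9 and SNHG17 rose, and the other 8 measured hosts did not pass. These 5 calls were 38.5% of the 13 measured hosts. Over all genes 26.4% passed, with 12.7% higher and 13.7% lower. SNHG4, whose span holds the genes of SNORA74A and SNORA74D, had signals of 5.68, 6.34 and 6.20 on the mimic arrays, against 6.88, 7.16 and 7.11 on the control arrays. Every mimic array lay below every control array, and the change was -0.98 ± 0.19 (adjusted p = 0.00793 in limma). The SNHG4 call was kept without any single array. SNHG3, host of SNORA73A and SNORA73B, was not detected on any mimic array (5.07, 5.13 and 5.15) and was detected on all 3 control arrays (5.69, 6.06 and 5.50). Its signal was at least 1.19-fold lower with the mimic (adjusted p = 0.0240 in limma), a bound set against the lowest detected signal on each mimic array. The SNHG3 call was lost without mimic 1, mimic 3, control 1 or control 2, with a highest adjusted p of 0.0759 in limma.

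SNHG1, whose introns hold SNORD22 and SNORD25 to SNORD31, gave 10.71, 10.91 and 10.69 on the mimic arrays, against 11.09, 11.32 and 11.16 on the control arrays. The groups did not overlap, and the change of -0.42 ± 0.13 stood just inside the threshold (adjusted p = 0.0496 in limma). SNHG9, host of SNORA78, gave 11.41, 11.33 and 11.25 with the mimic, against 10.73, 11.07 and 10.69 with the control. It rose by 0.49 ± 0.14 (adjusted p = 0.0379 in limma). SNHG17, which carries SNORA71A to SNORA71D, gave 8.99, 8.94 and 8.98 with the mimic, against 8.42, 8.74 and 8.33 with the control. Its 3 mimic arrays agreed closely and lay above every control array, and it rose by 0.47 ± 0.14 (adjusted p = 0.0425 in limma). Each of these 3 calls was lost without 5 of the 6 arrays taken singly. SNHG1 kept its call without mimic 2, with a highest adjusted p of 0.148 in limma otherwise. SNHG9 and SNHG17 kept theirs without control 2, with highest values of 0.126 and 0.132.

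Hosts that did not pass included abundant ones with small changes. SNHG5, SNHG6, SNHG7, SNHG11 and SNHG32 had changes between -0.05 and 0.05. SNHG5, host of SNORD50A and SNORD50B, gave 10.60, 10.70 and 10.77 with the mimic, against 10.70, 10.72 and 10.68 with the control. Its arrays overlapped, and the change was -0.01 ± 0.12. SNHG8 differed by 0.29 ± 0.14 (adjusted p = 0.169 in limma), SNHG15 by -0.21 ± 0.17 and SNHG12 by -0.27 ± 0.26. GAS5, which holds 11 snoRNA genes and is named for its rise in growth-arrested cells, was detected on 1 mimic array and no control array. SNHG10, SNHG20 and SNHG28 were detected on none. Outside the SNHG genes and GAS5, 4 further members hold a snoRNA gene in their span, and 3 of these were measured and did not pass. STX18-AS1, host of SNORD162, differed by -0.39 ± 0.18 (adjusted p = 0.156 in limma), EPB41L4A-AS1, host of SNORA13, by -0.26 ± 0.13 and LINC02203 by -0.14 ± 0.14.

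**Figure D3:**
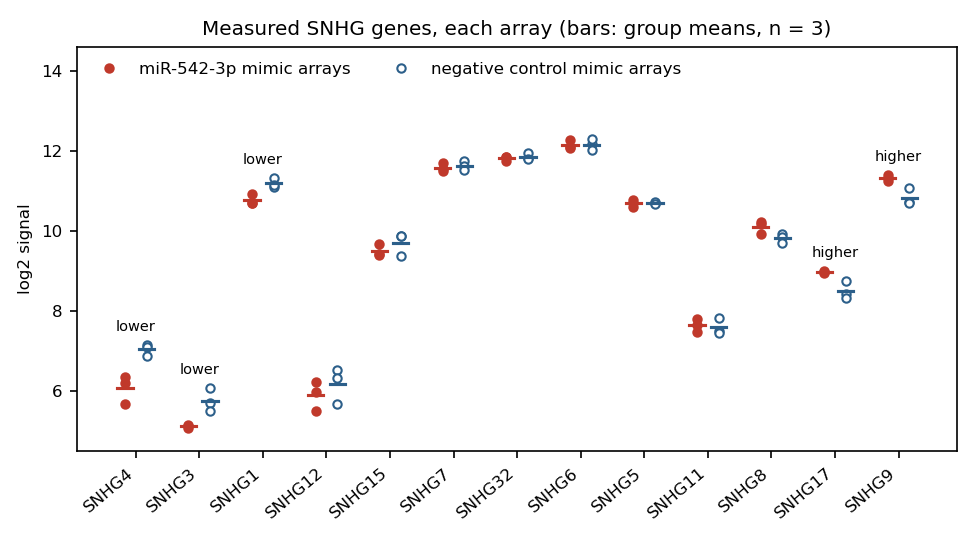
Log2 signal of the 13 measured SNHG genes on each array (vertical axis), in order of change, with filled points for mimic arrays left of open points for control arrays and bars for group means (n = 3 each). SNHG4, SNHG3 and SNHG1 are marked lower and SNHG9 and SNHG17 higher, and signals of different genes come from different probes and are not to be set against each other.

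Transcripts of many snoRNA hosts and of ribosomal protein genes begin with a run of pyrimidines, the terminal oligopyrimidine tract, through which growth signals act on their translation. The start regions of the hosts are shown for that reason, from RefSeq windows of GRCh38.p14, with 10 bases before the annotated start and the first 20 transcribed bases. Capitals mark runs of at least 5 pyrimidines within those first 20 bases. Windows existed for 10 of the 13 measured hosts, SNHG9 not among them.
SNHG4, chr5:139274091-139274120, plus strand: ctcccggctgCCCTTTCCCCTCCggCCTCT
SNHG3, chr1:28505933-28505962, plus strand: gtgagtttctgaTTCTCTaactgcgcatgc
SNHG1, chr11:62855866-62855895, minus strand: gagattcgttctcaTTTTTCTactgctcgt
SNHG17, chr20:38435309-38435338, minus strand: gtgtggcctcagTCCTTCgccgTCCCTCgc
SNHG5, chr6:85678714-85678743, minus strand: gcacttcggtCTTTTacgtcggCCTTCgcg
SNHG8, chr4:118278752-118278781, plus strand: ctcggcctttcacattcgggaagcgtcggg
The 3 hosts that fell and the SNHG17 window all hold a run somewhere in those 20 bases, as does SNHG5, while SNHG8 holds none. Of the windows shown, only those of SNHG4 and SNHG5 have a run that opens at the first transcribed base. In SNHG3, SNHG1 and SNHG17 the first run starts further in, so windows with a run are not a count of terminal tracts. A run was found in 8 of the 10 host windows, or 80% of them. Over all 35116 windows, from which no chromosome was left out, the share was 35.2%. Hosts that fell, rose and did not pass are all among those with a run. The SNHG4 window has the longest, with 13 pyrimidines.

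The genes beside the called hosts had their own probes. SNHG1 lies head to head with SLC3A2, which encodes the heavy chain of amino acid transporters, with 223 bases between their starts. SLC3A2 gave 10.68, 10.70 and 10.66 on the mimic arrays, against 11.25, 11.16 and 10.99 on the control arrays. It fell by 0.45 on the log2 scale (-0.45 ± 0.12, adjusted p = 0.0307 in limma). The SLC3A2 call was lost without any 1 array other than control 3, with a highest adjusted p of 0.116 in limma. The promoter window of SNHG1 is shown because the pair changed in the same direction, with the bases between SNHG1 and SLC3A2 in capitals.
SNHG1, chr11:62855836-62856135, minus strand: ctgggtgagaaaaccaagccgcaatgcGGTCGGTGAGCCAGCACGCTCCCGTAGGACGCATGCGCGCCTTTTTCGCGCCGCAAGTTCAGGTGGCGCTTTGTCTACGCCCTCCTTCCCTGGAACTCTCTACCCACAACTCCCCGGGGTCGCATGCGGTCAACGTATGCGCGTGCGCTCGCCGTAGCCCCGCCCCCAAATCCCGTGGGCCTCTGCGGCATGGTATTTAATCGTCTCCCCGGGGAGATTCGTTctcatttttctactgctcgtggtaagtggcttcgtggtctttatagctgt
The E-box CACGTG, the TATA motif TATAAA, the ETS-family motif CCGGAAG and the box CCAAT were searched on both strands, and no motif of these contains another. TATAAA alone was found in the SNHG1 window, and 11.5% of all 35116 windows hold it. The match lies after the SNHG1 start, on the strand opposite the one printed, and outside the bases in capitals. A match of letters is not a site shown to be used.

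SNHG4 overlaps MATR3, which encodes the nuclear matrix and RNA-binding protein matrin 3. The brightest MATR3 probe gave 12.12, 12.39 and 12.27 with the mimic, against 11.91, 11.98 and 11.99 with the control, a difference of 0.30 ± 0.12 that did not pass (adjusted p = 0.117 in limma). Among the other 3 MATR3 probes kept, the dimmest in mimic cells gave 5.96, 5.95 and 5.47 with the mimic, against 6.64, 6.95 and 6.60 with the control. That MATR3 probe fell by 0.94 on the log2 scale (adjusted p = 0.00675 in limma over single probes), while the other 2 differed by -0.15 and -0.04 and did not pass (adjusted p = 0.563 and 0.903). The change of SNHG4 was -0.98. Which transcripts these MATR3 probes read was not tested. SNHG3 overlaps RCC1, the exchange factor of the GTPase Ran, which differed by -0.31 ± 0.21 and did not pass. SNHG9 lies 169 bases from RPS2, a ribosomal protein gene, which differed by 0.07 ± 0.12. RALGAPB, the nearest coding gene to SNHG17, rose by 0.60 ± 0.13 (adjusted p = 0.0112 in limma) at a distance of 37514 bases.

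Among antisense genes, 6 of the 48 measured rose and 3 fell, or 18.8% called beside 26.4% of all genes. ATP2B1-AS1, antisense to the plasma membrane calcium pump gene ATP2B1, gave 9.17, 8.68 and 9.06 on the mimic arrays, against 7.88, 7.74 and 7.89 on the control arrays. All mimic arrays lay clearly above the controls, a 2.19-fold rise (change 1.13 ± 0.15, adjusted p = 0.00177 in limma). ATP2B1 itself was detected on 2 mimic arrays and 1 control array, and differed by 0.10 ± 0.22. ZNF674-AS1 gave 5.58, 5.86 and 5.41 on the mimic arrays, 2 of them detected, against 6.56, 6.66 and 6.60 on the control arrays. It fell by 0.99 on the log2 scale (-0.99 ± 0.14, adjusted p = 0.00232 in limma). ATP2B1-AS1 and ZNF674-AS1 kept their calls without any single array.

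ZNF674-AS1 starts 68 bases from ZNF674, a zinc finger gene, in the opposite direction. ZNF674 had 14.07, 14.10 and 13.95 with the mimic, against 14.08, 13.92 and 14.18 with the control, and differed by -0.02 ± 0.13. The ZNF674 probe was nearly as bright as that of RPS2, with means of 14.47 with the mimic and 14.40 with the control. Whether so bright a probe could show a change, or reads ZNF674 alone, was not tested. The window is shown because a change was seen with the ZNF674-AS1 probe alone, with the bases between the genes in capitals.
ZNF674-AS1, chrX:46545240-46545539, plus strand: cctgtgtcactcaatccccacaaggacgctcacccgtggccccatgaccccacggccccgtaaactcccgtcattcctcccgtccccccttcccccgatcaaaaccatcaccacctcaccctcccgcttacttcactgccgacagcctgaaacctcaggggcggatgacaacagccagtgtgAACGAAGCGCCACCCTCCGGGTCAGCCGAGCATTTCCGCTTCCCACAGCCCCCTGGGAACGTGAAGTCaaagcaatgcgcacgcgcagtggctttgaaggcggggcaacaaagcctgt
None of the 4 motifs named for SNHG1 was found in this window. Over 109 windows of 92 measured members, CACGTG was in 7.34%, TATAAA in 11.9%, CCGGAAG in 12.8% and CCAAT in 28.4%, against 7.26%, 11.5%, 10.3% and 34.6% of all windows.

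HAS2-AS1, antisense to the hyaluronan synthase gene HAS2, gave 6.13, 5.90 and 6.10 with the mimic, against 5.54, 5.48 and 5.33 with the control, where 2 of 3 arrays detected it. It rose by 0.60 ± 0.13 (adjusted p = 0.0127 in limma), and the HAS2-AS1 call was lost without mimic 1 (adjusted p = 0.0534 in limma). HAS2 gave 7.48, 7.39 and 8.06 with the mimic, against 5.09, 5.74 and 5.34 with the control, where 1 of 3 arrays detected it. HAS2 rose (fitted change 2.26 ± 0.23, adjusted p = 0.000487 in limma), with a size that rests partly on the 2 control signals below detection. A second HAS2 probe was detected on all mimic arrays and no control array, at least 1.87-fold higher with the mimic. Without background correction the HAS2 change was 1.05 and still passed. The HAS2 and HAS2-AS1 spans overlap, and strand-specific reading by the probes was not tested here.

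The other antisense genes that rose did so while their namesake genes did not pass. DHRS4-AS1, which lies by a cluster of short-chain dehydrogenase genes, gave 6.54, 6.88 and 6.57 with the mimic, against 5.59, 5.95 and 6.18 with the control (change 0.76 ± 0.18, adjusted p = 0.0183 in limma). TENM3-AS1 gave 7.84, 7.54 and 7.95 with the mimic, against 7.17, 7.26 and 7.13 with the control (change 0.59 ± 0.14, adjusted p = 0.0194 in limma). In both the lowest mimic array stood above the highest control array. OTUD6B-AS1 gave 6.26, 6.02 and 6.28 with the mimic, against 5.80, 5.39 and 5.63 with the control, where 2 of 3 arrays detected it (change 0.58 ± 0.15, adjusted p = 0.0250 in limma). MORC2-AS1 gave 8.28, 8.36 and 8.20 with the mimic, against 8.03, 7.58 and 7.82 with the control (change 0.47 ± 0.14, adjusted p = 0.0496 in limma). The partner genes DHRS4, TENM3, OTUD6B and MORC2 differed by 0.21, -0.16, 0.04 and 0.29, none past the threshold.

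FOXD2-AS1, which lies beside the forkhead gene FOXD2, gave 7.20, 7.35 and 7.64 with the mimic, against 7.93, 8.06 and 7.97 with the control. It fell by 0.59 on the log2 scale (-0.59 ± 0.14, adjusted p = 0.0211 in limma), while FOXD2 differed by 0.10 ± 0.14. KCNJ5-AS1 gave 6.14, 6.51 and 6.54 with the mimic, against 6.86, 6.92 and 7.33 with the control (change -0.64 ± 0.18, adjusted p = 0.0326 in limma). Its partner KCNJ5, a potassium channel gene, was not measured. The DHRS4-AS1 call was lost without control 1 (adjusted p = 0.0591 in limma). TENM3-AS1 and OTUD6B-AS1 lost theirs without mimic 1, mimic 3 or control 3, and also without control 1 for TENM3-AS1 and control 2 for OTUD6B-AS1, with highest adjusted p of 0.0694 and 0.0824 in limma. FOXD2-AS1 lost its call without mimic 1 or any 1 control array (highest adjusted p 0.0800 in limma). KCNJ5-AS1 lost its call without mimic 1, mimic 3, control 2 or control 3 (highest 0.107), and MORC2-AS1 without any 1 array but control 1 (highest 0.129).

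Of 11 measured divergent transcripts, PPP3CA-DT rose and CNN3-DT fell, or 18.2% called beside 26.4% of all genes. PPP3CA-DT gave 10.24, 9.69 and 10.32 on the mimic arrays, against 9.25, 9.62 and 9.44 on the control arrays. The lowest mimic array lay only just above the highest control array, and the change was 0.65 ± 0.19 (adjusted p = 0.0432 in limma). PPP3CA, the calcineurin catalytic subunit gene 250 bases away, gave 8.54, 8.20 and 8.46 with the mimic, against 7.91, 7.81 and 7.72 with the control. It rose by 0.59 ± 0.14 (adjusted p = 0.0173 in limma). CNN3-DT gave 6.53, 7.24 and 6.90 with the mimic, against 7.54, 7.51 and 7.72 with the control (change -0.70 ± 0.19, adjusted p = 0.0297 in limma). CNN3, which encodes the actin-binding protein calponin 3, differed by 0.34 ± 0.13 and did not pass (adjusted p = 0.0856 in limma). Both divergent calls were lost without any 1 array other than mimic 2, with highest adjusted p of 0.137 for PPP3CA-DT and 0.0923 for CNN3-DT. The PPP3CA call was lost without mimic 1, mimic 3 or control 3 (highest adjusted p 0.0685 in limma).

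Removing the ending from an antisense or divergent symbol gives a partner gene, and 43 such pairs had both sides measured. Both sides passed in 2 pairs, HAS2 and PPP3CA with their noncoding neighbours, and both rose. The noncoding side alone passed in 8, the partner alone in 6 and neither in 27. The sign was the same in 26 of the 43. The spans overlap in 27 pairs and lie under 1000 bases apart in another 14. Partners that passed alone were ANKRD13C at 0.92, ID2 at 0.78, PRKCQ at -0.62, LCMT1 at -0.75, RERE at -0.87 and JARID2 at -0.98, named here after their values were seen. The PRKCQ call was lost without any 1 array but mimic 3 (highest adjusted p 0.0795 in limma). Of 137 partner genes measured, with or without a measured noncoding side, 18 rose and 13 fell, with a median of 0.10. These were 22.6% of the partners, close to the 26.4% called over all genes. Without control 1 or control 3 the partners called numbered 19 or 20. The partners with the smallest adjusted p were TNFRSF14, a receptor of the TNF family, at 2.55, ST7 at -1.91, HAS2 and the lysosomal adaptor gene LAMTOR5 at -0.97. The other 2 kept ST7 probes differed by -0.14 and -0.02.

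**Figure D4:**
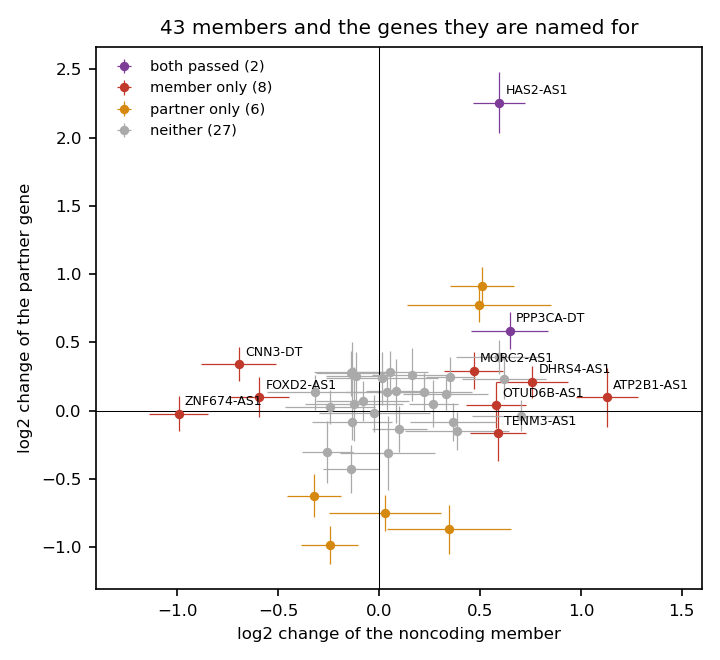
Log2 change of the partner gene (vertical axis) against that of the noncoding member (horizontal axis) for the 43 pairs with both measured, with bars for limma standard errors and colours for the side that passed. HAS2 stands highest at 2.26 with HAS2-AS1 at 0.60, and most of the 8 members that passed alone lie near a partner change of 0.

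LINC genes gave the extremes in both directions, with 5 of 43 measured higher and 5 lower. The share called was 23.3%, beside 26.4% of all genes. LINC02875, whose nearest coding gene is the T-box factor gene TBX2 at 2284 bases, gave 8.41, 7.71 and 8.62 on the mimic arrays, against 6.62, 6.28 and 6.62 on the control arrays. Mimic 2 was the lowest of the mimic arrays but stood well above the controls, and the rise was 3.33-fold (change 1.74 ± 0.24, adjusted p = 0.00171 in limma). TBX2 was not measured. LINC02901 gave 6.58, 7.21 and 6.60 with the mimic, against 5.94, 5.82 and 5.42 with the control, where 2 of 3 arrays detected it. It rose 2.10-fold (change 1.07 ± 0.21, adjusted p = 0.00863 in limma). EZR, the membrane-cytoskeleton linker ezrin and its nearest coding gene at 50445 bases, rose by 0.47 ± 0.11 (adjusted p = 0.0201 in limma). The EZR call was lost without mimic 1, control 1 or control 3 (highest adjusted p 0.0832 in limma).

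LINC01139 gave 9.12, 8.50 and 9.54 with the mimic, against 7.89, 7.98 and 8.19 with the control. Its mimic arrays were spread over more than 1 log2 unit, all above the controls, and it rose 2.04-fold (change 1.03 ± 0.25, adjusted p = 0.0197 in limma). LINC00339 gave 8.97, 8.67 and 9.16 with the mimic, against 8.53, 8.15 and 8.38 with the control (change 0.58 ± 0.17, adjusted p = 0.0385 in limma). Its 3 probes gave changes of 0.58, 0.57 and 0.69, each past the threshold. LINC03124 gave 7.75, 7.76 and 7.91 with the mimic, against 7.12, 7.24 and 7.49 with the control (change 0.52 ± 0.14, adjusted p = 0.0290 in limma). LINC02875 and LINC02901 kept their calls without any single array. LINC01139 lost its call without mimic 1, control 1 or control 2 (highest adjusted p 0.0671 in limma). LINC03124 lost its call without mimic 1, mimic 3, control 1 or control 2 (highest 0.106), and LINC00339 without any 1 array but mimic 2 (highest 0.113).

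LINC00470 gave 4.86, 5.89 and 4.89 on the mimic arrays, of which 1 detected it, against 6.26, 6.44 and 6.78 on the control arrays. Mimic 2 stood apart from the other mimic arrays, and the fitted change was -1.28 ± 0.28 (adjusted p = 0.0138 in limma). Since 2 mimic arrays did not detect LINC00470, that size and its place as the lowest member rest partly on signals below detection. A second LINC00470 probe was detected on no mimic array and on all 3 control arrays, at least 1.52-fold lower with the mimic. LINC00092 gave 6.10, 6.57 and 6.07 with the mimic, against 7.31, 7.36 and 7.31 with the control. Its control arrays were nearly equal, and it fell 2.11-fold (change -1.08 ± 0.16, adjusted p = 0.00238 in limma). LINC00092 overlaps ERCC6L2, a helicase-family gene, which gave 8.50, 8.14 and 8.25 with the mimic, against 7.68, 7.36 and 7.66 with the control. ERCC6L2 rose by 0.73 ± 0.15 (adjusted p = 0.0110 in limma), opposite to LINC00092.

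LINC00623 gave 8.09, 8.12 and 8.23 with the mimic, against 8.89, 8.85 and 9.02 with the control (change -0.77 ± 0.12, adjusted p = 0.00307 in limma). LINC00221 gave 7.42, 6.81 and 6.92 with the mimic, against 7.73, 8.02 and 7.69 with the control (change -0.76 ± 0.19, adjusted p = 0.0210 in limma). For both, the highest mimic array lay below the lowest control array. LINC01311 was not detected on any mimic array (4.86, 5.13 and 5.02) and was detected on all 3 control arrays (5.48, 5.90 and 5.83), at least 1.18-fold lower with the mimic (adjusted p = 0.0109 in limma). SLC25A1, the mitochondrial citrate carrier gene 2748 bases away, fell by 0.65 on the log2 scale (-0.65 ± 0.14, adjusted p = 0.0118 in limma). LINC00092, LINC00623 and LINC01311 kept their calls without any single array. LINC00470 lost its call without control 3 (adjusted p = 0.0531 in limma), and LINC00221 without mimic 2, mimic 3, control 1 or control 2 (highest 0.0683).

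**Figure D5:**
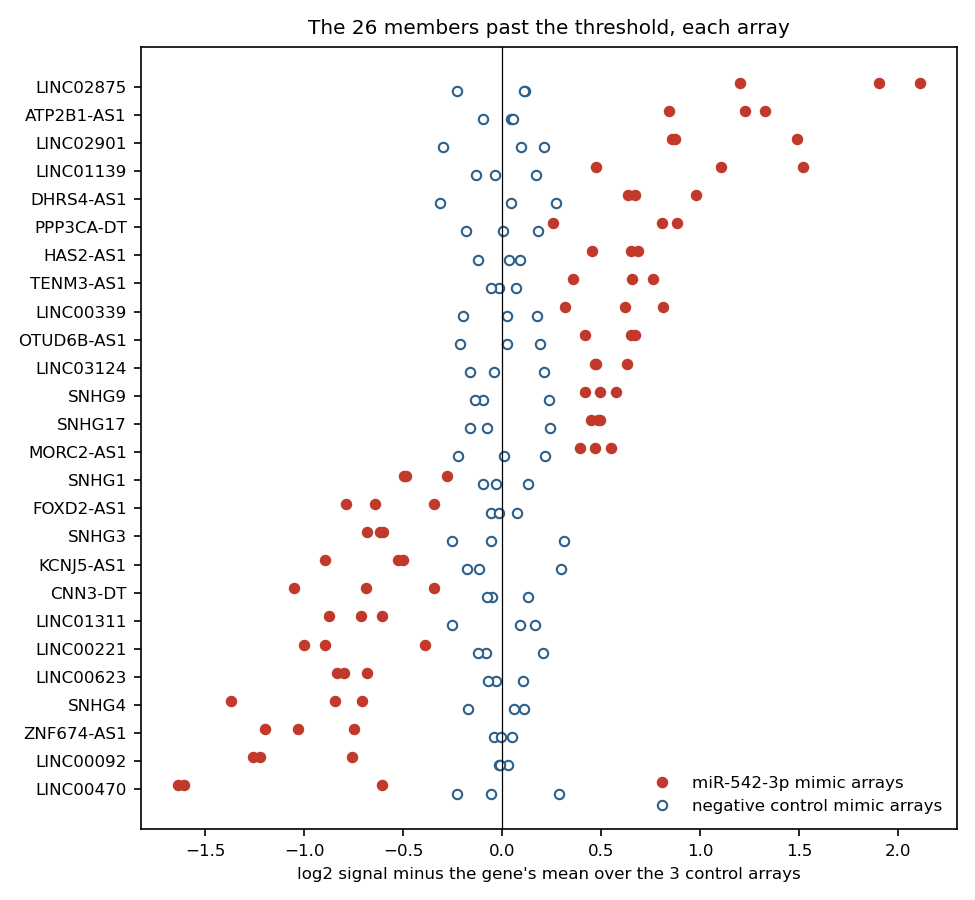
Log2 signal of each array minus the control mean of the same gene (horizontal axis) for the 26 members that passed, with filled points for mimic arrays and open points for control arrays. Rows run from LINC02875 at the top to LINC00470 at the bottom. In each the mimic arrays lie to 1 side of all control arrays, which selection by adjusted p on these arrays favours.

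Of the 26 called members, 20 had a measured nearest coding gene, and 7 of these 20 genes passed, beside 26.4% of all genes, 6 of the 7 in the same direction as the member. All 26 had groups that did not overlap, which selection by adjusted p on the same arrays favours, so it is no separate result. Among these 26, mimic 2 was the mimic array nearest the control mean in 16, or 61.5%. Over all 2832 called genes that share was 52.7%. The size of many changes depended on the background step. Without background correction 17 of the 26 changes were over 1.5 times smaller, by a ratio of up to 2.83, and HAS2-AS1, OTUD6B-AS1 and SNHG3 lost their calls (adjusted p = 0.0894, 0.0978 and 0.0688 in limma). For members that kept their call, the change without that step was 1.03 for LINC02875, 0.84 for ATP2B1-AS1, 0.45 for LINC02901, -0.39 for ZNF674-AS1, -0.44 for SNHG4, -0.53 for LINC00092, -0.28 for LINC01311 and -0.59 for LINC00623. LINC00470 stood at -0.51 and DHRS4-AS1 at 0.31. By the number of arrays that detected them, 7.69% of members were called at 3 arrays, 7.14% at 4, 33.3% at 5 and 28.8% at 6. The same shares over all genes were 26.1%, 21.1%, 20.8% and 27.0%.

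The named long noncoding RNAs of cancer biology added no call. PVT1, which lies downstream of MYC and is amplified with it in many tumours, gave 8.58, 8.49 and 8.51 on the mimic arrays, against 8.29, 8.11 and 7.94 on the control arrays. The groups did not overlap, and the difference of 0.41 ± 0.13 fell just short (adjusted p = 0.0565 in limma). MALAT1, a nuclear speckle RNA, the imprinted H19 and MEG3, and TP53TG1 were detected on no array. Whether the probes of these genes and of GAS5 can read their RNAs was not tested, so a missing signal does not show absence. MIR503HG, the host transcript that lies 1939 bases from the gene of miR-542 itself, was detected on 1 mimic array and no control array. The 2 measured microRNA hosts, MIR181A2HG and MIR1915HG, differed by 0.26 ± 0.21 and 0.13 ± 0.23. ANKRD13C-DT at 0.51 (adjusted p = 0.0505 in limma) and FBXL19-AS1 at 0.34 (adjusted p = 0.0593) also lay near the threshold without passing. ANKRD13C-DT gave 5.91, 5.87 and 6.23 with the mimic, against 5.30, 5.48 and 5.70 with the control, with ANKRD13C itself among the partners that passed. The changes of the 92 that did not pass ran from -0.52 for DLGAP1-AS1 to 0.71 for TPT1-AS1.

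Some antisense genes that did not pass had mimic and control arrays that met or nearly met. SERTAD4-AS1 gave 11.78, 11.12 and 11.95 with the mimic, against 10.94 to 11.12 with the control (change 0.59 ± 0.21, adjusted p = 0.0795 in limma). Mimic 2 of SERTAD4-AS1 lay within the control range, and the other 2 mimic arrays lay above it. ZEB1-AS1, antisense to the zinc finger repressor gene ZEB1, gave 6.66, 6.98 and 6.94 with the mimic, against 5.83, 6.57 and 6.43 with the control (change 0.58 ± 0.21, adjusted p = 0.0762 in limma). Its spread came from the control arrays, of which control 1 was the lowest. DLGAP1-AS1 gave 7.23, 7.22 and 7.48 with the mimic, against 8.04, 7.48 and 7.97 with the control, and the highest mimic array met the lowest control array. OIP5-AS1, known as cyrano, a conserved RNA that lowers miR-7, differed by -0.14 ± 0.14 (adjusted p = 0.517 in limma).

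Proteins that make, carry or destroy these RNAs were read from 4 lists. In box C/D and H/ACA snoRNP assembly, 3 of 20 measured genes rose and 1 fell, with a median of 0.11. SNU13, which binds the snoRNA kink-turn, gave 10.41, 10.59 and 10.13 with the mimic, against 11.46, 11.57 and 11.21 with the control. On this brightest probe SNU13 fell 2.05-fold (change -1.03 ± 0.16, adjusted p = 0.00331 in limma). Its other 2 kept probes differed less, by -0.55, which passed, and -0.44, which did not (adjusted p = 0.0196 and 0.0655 in limma over single probes). ZNHIT6, a box C/D assembly factor, rose by 0.91 ± 0.16, the ATPase RUVBL2 by 0.59 ± 0.15 and RRP9, the U3 snoRNP protein, by 0.59 ± 0.17. In nonsense-mediated decay, 1 of 16 measured genes rose and 2 fell, with a median of 0.00. The kinase SMG1 rose by 0.75 ± 0.17, while the helicase UPF1 fell by 0.41 on the log2 scale (-0.41 ± 0.12) and the decapping factor DCP1A by 0.56 (-0.56 ± 0.17). Of protein-coding snoRNA hosts, 2 of 52 rose and 7 fell, with a median of -0.03. PRKAA1, the kinase subunit AMPK alpha 1, differed by -1.47 ± 0.25, the ribosomal protein gene RPL13A by -1.02 ± 0.14, the mitochondrial import receptor TOMM20 by -0.95 ± 0.14 and CWF19L1 by -0.71 ± 0.13, all past the threshold. The 2 that rose, CFDP1 and the chaperonin gene TCP1, are named after their values were seen.

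Of 24 measured paraspeckle proteins and partners of NEAT1 or MALAT1, none rose and 4 fell, with a median of -0.12. These were NUDT21, a 3′ end processing factor, at -1.03 ± 0.28, the splicing factor HNRNPA1 at -0.63 ± 0.14, SFPQ, a core paraspeckle protein, at -0.45 ± 0.14, and UPF1, which stands on 2 lists. The share called was 20.0% for snoRNP genes, 18.8% for decay factors, 17.3% for protein-coding hosts and 16.7% for paraspeckle genes, against 26.4% of all genes. Without background correction the calls were 7 of 20, 6 of 16, 15 of 52 and 8 of 24. Over all rows tested, 23.6% were called in the main fit and 28.7% without that step. Set against rows, the lists lay below in the main fit. Without that step they lay above, except the protein-coding hosts, which were level with the rows. The share of all genes called without that step is not given here. Counts this small moved with single arrays. Without mimic 1 there were 2 snoRNP genes called, 0 decay factors, 5 protein-coding hosts and 0 paraspeckle genes. Without control 1 the snoRNP, decay and paraspeckle counts were 2, 1 and 1, and without control 3 they were 2, 1 and 0. Without mimic 2 or mimic 3 there was 1 decay factor, and without mimic 3 or control 2 there was 1 paraspeckle gene. SNU13, ZNHIT6, RPL13A, TOMM20, PRKAA1 and CWF19L1 passed without any single array. SMG1, UPF1, DCP1A, HNRNPA1, NUDT21, SFPQ, RUVBL2 and RRP9 each lost the call without at least 1 array.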

How the data were processed

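RNA of 6 samples was measured on Illumina bead arrays. The authors deposited a non-normalized intensity for each probe on each array. Beside it stands a detection p-value, per the file headers. A second table the authors deposited holds normalized values on the log2 scale and served as an alternative. For the scanner software and upstream steps, nothing is given in the sources used here. Gene names came from GEO's platform annotation, which lists 1 gene for 30113 probes, several for 8 and none for 17202. Symbols were checked against RefSeq (GRCh38.p14), where 39 had no match and kept their symbol. The record behind a member's probe was a RefSeq noncoding record for 363 of 615 probes, a RefSeq coding record for 65 and another cDNA or EST for 187. The 4 called members KCNJ5-AS1, LINC02875, LINC02901 and LINC03124 rest on probes of coding records.

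Intensities were corrected with limma's nec (offset 16, negative controls inferred from detection p-values), quantile-normalized and converted to log2, with limma 3.58.1 in R 4.3.3. Probes detected (p under 0.05) on 3 or more of the 6 arrays were kept, and the brightest probe stood for a gene, which left 14775 rows. The groups were compared with lmFit and eBayes without covariates, and p-values were adjusted over all rows by Benjamini-Hochberg. Where no array of a group detected a gene, only a bound can be given ("at least N-fold"). It sets the bright group's mean against the mean, over the dim group's arrays, of the probe's signal or the array's lowest detected signal, whichever is higher. The number of arrays limits the precision. The fit was tested on simulated data of 14775 rows, of which 67 had a true change of 0.5 (log2), 67 of 1 and 66 of 2. It called 1.49%, 68.7% and 95.5% of these. In the data themselves 23.6% of rows passed, so the adjusted threshold was less strict there. The simulated shares therefore do not give the recovery of this fit in the data.

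Samples with the same replicate number in the labels deviated together at r = 0.02, 0.08 and 0.10. Mimic and control samples with different numbers did so at r between -0.13 and 0.05. All of these were small, so the numbers were not taken as pairs. Every measured member could be named, called members were given with each array, and up to 4 genes per further list by smallest adjusted p. Members and lists were chosen with earlier results of these data known. Alternatives were other background steps, normalizations, filters, probe rules, variance models, array weights, a stricter threshold, a replicate block and leaving out each array with the rows kept the same. The filters left 37256 rows with no filter and 11670 with detection on all 6 arrays. Those for genes beside the members were added after seeing the data. Sequence windows came from RefSeq tables of GRCh38.p14, and seed matches were not analysed here.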

Additional observations from a re-analysis of the deposited data

How the results depend on the processing

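Of the 26 called members, 8 stayed at an adjusted p under 0.05 in every alternative that measured them: ATP2B1-AS1, LINC02875 and LINC02901 higher, and ZNF674-AS1, LINC00092, LINC00623, LINC01311 and SNHG4 lower. LINC01311 did not pass 0.01, and LINC01311, LINC02901 and ZNF674-AS1 were not measured on all 6 arrays. The other 18 rose above 0.05 in at least 1, and 12 of the 92 that did not pass gained a call under at least 1. No called member changed sign. The count of members that rose was 7 with no filter on dim probes, 22 with array weights and 3 at an adjusted p under 0.01, where 4 fell. Leaving out 1 array at a time gave 4 to 14 higher and 7 to 11 lower, with a median change of 0.05 to 0.10. The called decay factors ranged from 0 to 2 that way, paraspeckle genes from 0 to 3, protein-coding snoRNA hosts from 5 to 8, snoRNP genes from 2 to 5 and partners from 19 to 35. With no background correction these lists held 6 decay factors, 8 paraspeckle genes, 15 protein-coding hosts and 7 snoRNP genes called, with 28.7% of all rows called. The deposited log2 values, and also eBayes with trend and robust, gave 6, 8 and 15 for decay factors, paraspeckle genes and hosts. Hosts numbered 14 with a normexp offset of 50 and 14 among genes detected on all 6 arrays. With no filter on dim probes 1 decay factor and 1 paraspeckle gene were called. At an adjusted p under 0.01 there were 0 decay factors, 0 paraspeckle genes, 5 hosts, 2 snoRNP genes and 15 partners. The cause of these shifts was not tested, except that a stricter threshold leaves fewer calls by construction. With the replicate number as a block, 13 members rose and 11 fell, 21 of these 24 shared with the fit without it, and 1 decay factor and 2 paraspeckle genes were called. With every probe as its own row MATR3 was represented at -0.94 by its most significant probe, opposite in sign to its brightest, since that alternative picks another probe. Signal over background also limits the members, with 66 of the 118 detected on all 6 arrays.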

Other observations

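Several members had more than 1 kept probe, and the probes did not always give the same answer. Of 12 such members, 3 had some probes past the threshold and others not. PRKCQ-AS1 differed by -0.32 on its brightest probe, which did not pass, and its other probe was detected on no mimic array and on all 3 control arrays, at least 1.58-fold lower with the mimic. PRKCQ, the protein kinase C theta gene it is named for, fell by 0.62 on the log2 scale. SLC38A4-AS1 differed by 0.10 on its brightest probe, and its other probe was detected on all mimic arrays and no control array, at least 1.39-fold higher with the mimic. The second TENM3-AS1 probe differed by 0.08, against 0.59 on the brightest. ANKRD13C-DT was the 1 member whose kept probes differed in sign, at 0.51 and -0.03. Which transcripts these probes read was not tested.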
